A study of Piaractus mesopotamicus and Piaractus mesopotamicus x Colossoma macropomum and Colossoma macropomum with 15 samples.

Results

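The miRNAs numbered miR-722 to miR-740 were first named in zebrafish. They were taken as every row of the raw counts whose name carried 1 of these numbers, with all arms. This gave 22 of the 595 mature miRNA loci counted, from 18 numbered miRNAs, and among them dre-miR-722 and dre-miR-727-5p. The choice used the names alone. Small RNA was sequenced from fast muscle taken near the dorsal fin of 15 early juvenile fish of 3 genotypes. They were 5 hybrids named tambacu (TC), the offspring of tambaqui females and pacu males, 5 pacu (PC, Piaractus mesopotamicus) and 5 tambaqui (TQ, Colossoma macropomum). No fish received a treatment, and all 3 genotypes were kept in water of the same controlled conditions with a daily light period and feed. Each library came from 1 fish, which the labels give a number, and values per fish are given in the order of these numbers (TC3, TC4, TC5, TC6 and TC8, then PC3, PC4, PC5, PC8 and PC10, then TQ1, TQ2, TQ3, TQ6 and TQ8). In all 3 genotypes the reads were aligned to the precursors of Danio rerio, the zebrafish, so a change of a sequence between the species and a change of its level cannot be told apart in these counts.

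A miRNA is cut from a hairpin precursor, and 1 strand of the hairpin, the 5p or the 3p arm, is usually loaded into the silencing complex while the other is degraded. The loaded strand pairs with messenger RNAs mainly through its seed, bases 2 to 8, and lowers their translation and stability. In zebrafish, miR-722 slows the migration of neutrophils by acting on rac2, a GTPase of the actin cytoskeleton. miR-731 is transcribed in fish together with miR-462 and belongs to the family called miR-425 in mammals, and both respond to hypoxia and to viral infection in fish. In teleost genomes the precursor of miR-726 lies beside a long-wavelength opsin gene.

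The mature sequences of the miRNAs on which the results turn are shown. The counts of each rest on reads aligned to the zebrafish precursor at the place of this sequence. How closely these reads matched its letters was not examined. The sequences are written 5′ to 3′ in the DNA letters of the study's miRBase precursors, with the seed in capitals. The first 3 had the highest counts, the next pair is made of the arms of 1 precursor, and the last 3 had counts that stood apart in single fish or genotypes.
miR-737-5p: gTTTTTTTaggttttgatttt
miR-731: aATGACACgttttctcccggatcg
miR-722: tTTTTTGCagaaacgtttcagatt
miR-727-5p: tCAGTCTTcaattcctcccagc
miR-727-3p: gTTGAGGCgagttgaagactta
miR-724: tTAAAGGGaatttgcgactgtt
miR-726: tTCACTACtagcagaactcgg
miR-728: aTACTAAGtacactacgttttc

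The 22 mature sequences had 22 distinct seeds, so their shared numbering did not go with a shared target-binding sequence. miR-722 was the only one whose seed occurred under another name of the annotation, miR-129-5p, a miRNA known from neurons. miR-737-5p was the least complex of those shown, with a GC content of 19.0% and a run of 7 T. miR-722 had a GC content of 29.2% and a run of 6 T. Each sequence lay on 1 precursor, for example miR-722 on bases 56 to 79 of a precursor of 91 bases, miR-727-5p on bases 14 to 35 and miR-727-3p on bases 57 to 78 of another of 91 bases. The exception was miR-725, whose 2 precursors of 80 bases were identical.

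The total count per fish was 2422820 to 5669084, with a median of 4763971 in TC, 4769153 in PC and 2858311 in TQ. Levels are given as CPM, counts scaled to a common library size after TMM, the scaling of edgeR. Where a fish had no count, its true level may still reach 0.463 to 1.33 CPM, the worth of 3 counts, for counting error only. TMM factors ranged from 0.621 in PC8 to 1.43 in TQ8. As markers of the labelled tissue, miR-1 averaged 930 CPM in TC, 723 CPM in PC and 604 CPM in TQ, and miR-206-3p averaged 219 CPM in TC, 170 CPM in PC and 124 CPM in TQ, while miR-133a-3p and miR-133b-3p were at 0 in all 15 fish.

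Of the 22 loci, 11 had a count in at least 1 fish, against 272 of all 595 loci. Each member name had 1 locus, whereas many other names were listed at several. By mature name, 214 of 369 had a count. Shares over all loci, here and below, include such copies. Of these 11, 7 passed a mean normalized count of at least 10 over the 15 fish, against 199 of all loci, and 4 stayed below it. The other 11 were at 0 in all fish, namely miR-723-5p, miR-723-3p, miR-725-5p, miR-725-3p, miR-729, miR-732, miR-733, miR-735-3p, miR-736, miR-738 and miR-740. Pooled over the fish, 3 counts are worth 0.0499 CPM, which limits the level for counting error only. A 0 in these counts need not mean absence, since miR-133a-3p and miR-133b-3p, known from muscle, were listed at 0 too. Those names were each listed at several loci, and each member name at 0 at a single locus, so the cases may differ. The arms of miR-725, however, also lay on another, identical precursor. Some other names listed at several loci, such as miR-199-5p and miR-365, had counts at each. The handling of reads with several matches is not given in the sources, and the source of the zeros was not tested. The loci at 0 had GC contents of 25.0% to 78.3% (median 47.8%), and those with counts 19.0% to 50.0% (median 45.5%), and both sets had lengths of 21 to 24 bases. No member's place overlapped that of another mature sequence.

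The 22 loci held little of what was counted in muscle, 0.0777% ± 0.0132 of all counts in TC, 0.0988% ± 0.035 in PC and 0.126% ± 0.0105 in TQ (SD, n = 5 each). The lowest and highest fish were at 0.0573% and 0.0921% in TC, 0.0625% and 0.14% in PC and 0.108% and 0.134% in TQ, so no TC fish reached the lowest TQ fish. These shares rest on total counts. On the TMM scale the members summed to 861 ± 55.4 CPM in TC, 980 ± 107 CPM in PC and 1091 ± 177 CPM in TQ (SD, n = 5 each), a smaller contrast, with fish at 770 to 917 CPM in TC, 803 to 1084 CPM in PC and 918 to 1309 CPM in TQ. miR-737-5p, miR-731 and miR-722 held 96.0% of the members' 58411 counts. Among the 214 mature names with a count, miR-737-5p ranked 48th, miR-731 63rd and miR-722 69th. Next came miR-727-3p at rank 124, miR-724 at 128, miR-727-5p at 129 and miR-730 at 149. The 4 scarce ones were miR-734, miR-726, miR-728 and miR-737-3p at ranks 164 to 180.

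The genotypes entered a single edgeR quasi-likelihood fit. DE calls needed a log2FC of 0.75 or more in size together with a padj, the Benjamini-Hochberg adjusted p over the 199 loci, of 0.05 or less. TC vs. PC had 0 of the 7 members called, where 3.52% of all loci were. TC vs. TQ had 1 called, miR-727-5p, which fell, where 14.6% of all loci were. PC vs. TQ had 0 called, where 10.6% of all loci were. TC against the mean of both parents had 0 called, where 3.02% of all loci were. At an unadjusted p under 0.05 in the same edgeR fit there were 3 of 7 members in TC vs. PC, beside 29.1% of all loci, 4 in TC vs. TQ (36.7% of all loci), 2 in PC vs. TQ (34.7%) and 3 in TC against the parental mean (30.2%). DESeq2 without a prior called 1 member in TC vs. TQ, beside 17.1% of all loci, and 1 in PC vs. TQ, beside 15.1%. It called 0 members in TC vs. PC (7.54% of all loci) and in TC against the parental mean (4.02%). With such shares over all loci, these counts are no result about the members. By padj alone, without a log2FC minimum, 3 members passed in TC vs. TQ, where 26.6% of all loci did, and 1 in TC against the parental mean, where 9.05% did. By padj alone 0 members passed in TC vs. PC (9.55% of all loci) and in PC vs. TQ (13.6%). The 7 members had a median log2FC of -0.50 in TC vs. TQ and -0.45 in TC against the parental mean, beside 0.03 over all 199 loci in both. In TC vs. PC their median was -0.16, beside 0.02 over all loci, and in PC vs. TQ it was -0.09, beside 0.00. These comparisons share fish, since each genotype enters 2 of them, and the parental mean uses all.

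**Figure D1:**
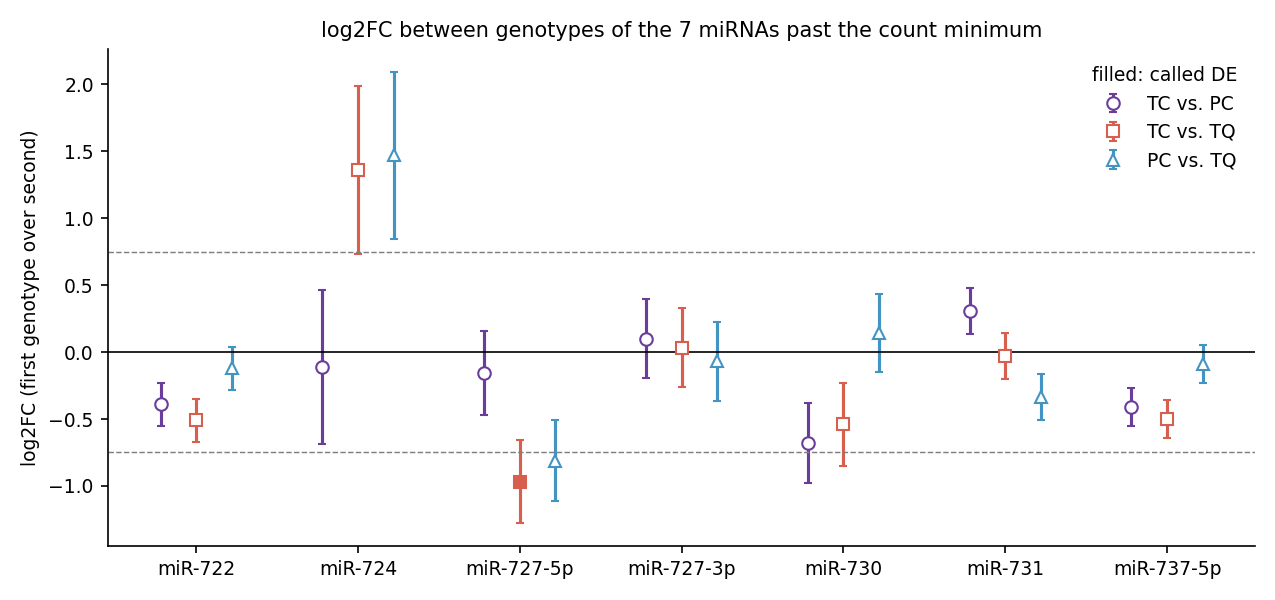
log2FC (vertical axis, first genotype over second) of the 7 miRNAs past the count minimum in the 3 pairs of genotypes, from the edgeR fit. Bars are 1 standard error (SE), worked back from the log2FC and the F statistic of its test. Dashed lines mark the log2FC minimum of 0.75 in either direction. Only the filled point, miR-727-5p in TC vs. TQ at -0.97, was called DE, while miR-724 had the highest values and the longest bars.

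miR-727-5p was the member called DE. It was at 5.76, 9.22, 2.81, 7.63 and 10.2 CPM in TC, at 4.94, 9.42, 9.55, 6.65 and 7.87 CPM in PC and at 15.7, 18.3, 9.66, 13.6 and 10.7 CPM in TQ. By CPM every PC fish was below every TQ fish, and 4 of 5 TC fish were, with TC8 alone above TQ3. PC5 was only just below TQ3, and the full separation of PC from TQ rested on the scaling. As a part of the library's total, PC4 (61 of 4769153 counts) and PC5 (56 of 4904194) were above TQ3 (30 of 2932943). The means were 7.12 ± 2.94 CPM in TC, 7.69 ± 1.95 CPM in PC and 13.6 ± 3.55 CPM in TQ (SD, n = 5 each). By edgeR, TC vs. TQ had a log2FC of -0.97 (SE 0.31, padj = 0.0317). PC vs. TQ, at -0.81 (SE 0.30, padj = 0.0742), missed the threshold. For TC vs. PC it was -0.16 (SE 0.31, padj = 0.811). Exact permutation tests of the CPM, two-sided over every arrangement of the fish, gave p = 0.0159 for TC vs. TQ, 0.00794 for PC vs. TQ and 0.738 between TC and PC, where 0.00794 is the smallest p that 5 fish against 5 can give. The call for TC vs. TQ was lost when TC3, TC5, TC6, TQ1, TQ2 or TQ6 was left out (padj up to 0.0801), and PC vs. TQ passed both thresholds without PC4 or without TC5 (lowest padj 0.044). The counts behind these levels were 16 to 97 per fish.

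**Figure D2:**
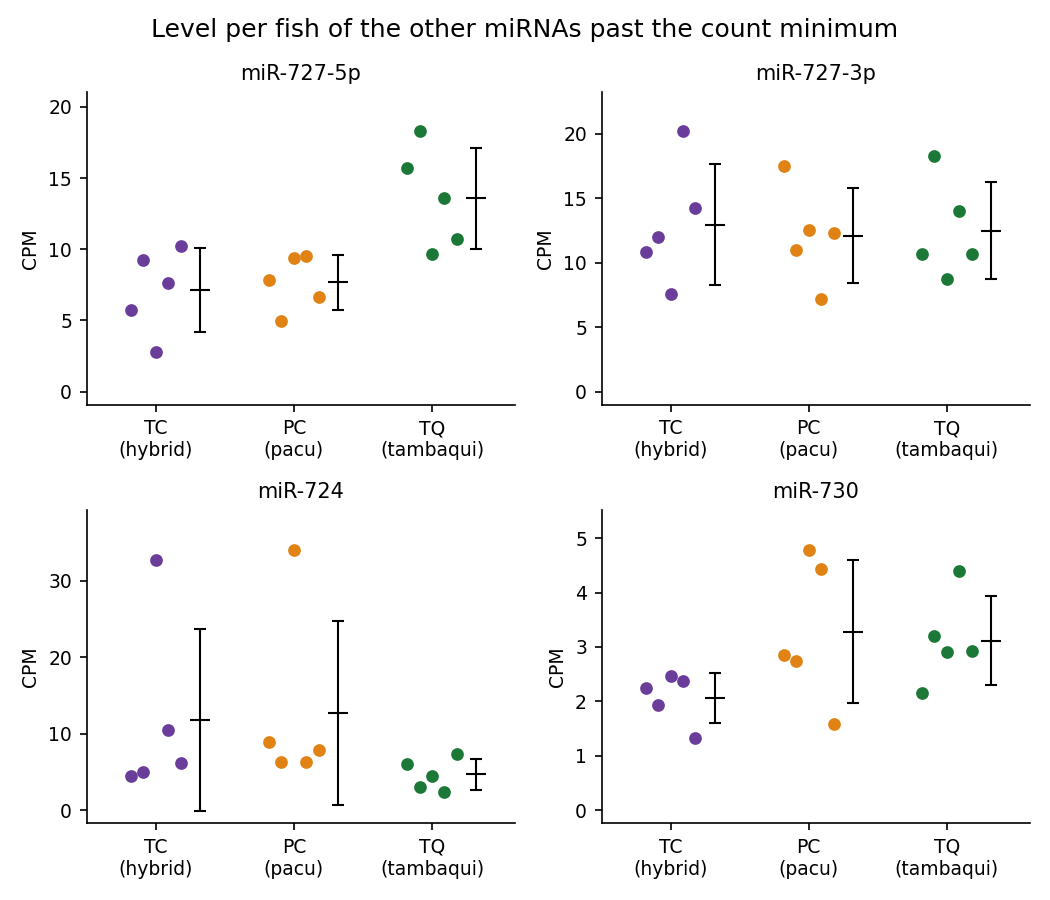
Level per fish in CPM (vertical axis) of miR-727-5p, miR-727-3p, miR-724 and miR-730 in TC, PC and TQ. Each point is 1 fish, with the mean and SD of 5 fish beside the points. miR-727-5p lies between 9.66 and 18.3 CPM in TQ, above all PC fish on the TMM scale. miR-727-3p overlaps across genotypes, and miR-724 has 1 high fish each in TC and PC.

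The opposite arm did not show this order. miR-727-3p was at 10.8, 12, 7.55, 20.2 and 14.2 CPM in TC, at 11, 12.5, 7.16, 12.3 and 17.5 CPM in PC and at 10.7, 18.3, 8.7, 14 and 10.7 CPM in TQ. The ranges overlapped throughout, and the log2FC by edgeR was 0.10 between TC and PC, 0.03 between TC and TQ and -0.07 between PC and TQ, with an SE of 0.29 each and padj of 0.829 to 0.923.

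The ratio of the arms within a fish does not depend on the scaling of the libraries. It holds the same miR-727-5p counts as the DE call, so it is no separate test of that call. The counts of miR-727-5p were 0.372 to 0.768 times those of miR-727-3p in TC, 0.449 to 1.33 times in PC and 0.971 to 1.47 times in TQ. Every TC fish was thus below every TQ fish, and in TC the 3p arm had more counts in all 5 fish. In TQ the arms were about level, and 2 of 5 fish had the same count for both. The mean log2 ratio of 5p to 3p was -0.92 ± 0.50 in TC, -0.64 ± 0.66 in PC and 0.13 ± 0.25 in TQ (SD, n = 5 each). TC differed from TQ by -1.05, with a two-sided exact permutation p of 0.00794, or 0.0238 after adjustment over the 3 pairs of genotypes. The difference was -0.77 for PC vs. TQ (exact p = 0.0635, adjusted 0.0952) and -0.28 for TC vs. PC (exact p = 0.476, adjusted 0.476). PC5 was the only PC fish with more 5p than 3p, and without it PC vs. TQ gave -1.03 (exact p = 0.00794). PC5 was singled out after its ratio was seen, and every other PC fish was below every TQ fish. That p followed from the choice of fish and is no separate test. The test for TC vs. TQ was passed by means and not by medians, whose difference was -0.90 (exact p = 0.119).

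**Figure D3:**
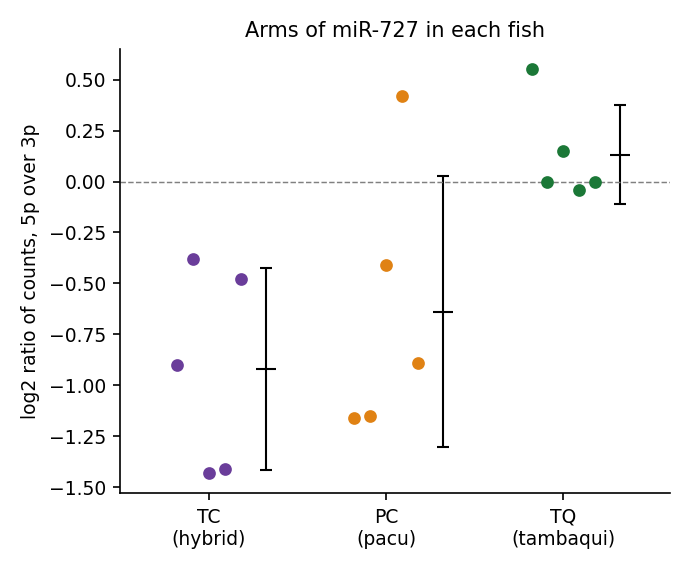
log2 ratio of the counts of miR-727-5p to miR-727-3p (vertical axis) in each TC, PC and TQ fish, with the mean and SD of 5 fish beside the points and a dashed line where both arms are equal. All TC fish lie below the line and below all TQ fish, and PC fish spread over both sides.

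Of the loci tested, the 3 whose levels ran most like miR-727-5p over the 15 fish were miR-155 (Pearson r = 0.805, Spearman rho = 0.725), miR-223 (r = 0.733, rho = 0.9) and miR-17a-5p (r = 0.717, rho = 0.818), among 145 names and on log2(CPM + 1). This is a description over fish that share genotypes and scaling. miR-155 marks activated lymphocytes and macrophages and miR-223 marks granulocytes. miR-223 averaged 39.3 CPM in TC, 39.5 CPM in PC and 83.6 CPM in TQ (log2FC -1.10, padj = 0.0111 for TC vs. TQ and -1.08, padj = 0.0136 for PC vs. TQ by edgeR). miR-155 averaged 3.19 CPM in TC, 3.71 CPM in PC and 7.62 CPM in TQ (log2FC -1.26, padj = 0.0151 for TC vs. TQ and -1.03, padj = 0.0526 for PC vs. TQ by edgeR). Of the leukocyte list of 6 markers 5 were counted, with miR-142b-5p at 0. Of these, 2 of 5 were called lower in TC vs. TQ (miR-155 and miR-223) and 2 of 5 in PC vs. TQ (miR-150 and miR-223). The markers did not all follow miR-727-5p in TC vs. TQ. There miR-142a-5p, the most counted of the list, had a log2FC of 0.15 by edgeR (padj = 0.471). In the same fit miR-150 was at -0.17 (padj = 0.471) and miR-142a-3p at -0.70 (padj = 0.0262), under the log2FC minimum. The summed level of the list was 712 to 919 CPM in TC, 456 to 706 CPM in PC and 758 to 983 CPM in TQ. The part of blood cells in the level of miR-727-5p was not tested. In whole muscle, fewer cells of a type and less of an RNA per cell cannot be told apart.

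miR-737-5p was the most counted member. It was at 359, 388, 408, 404 and 389 CPM in TC, at 406, 512, 601, 472 and 594 CPM in PC and at 486, 439, 673, 654 and 500 CPM in TQ. No TC fish reached the lowest TQ fish, and only TC5 was above the lowest PC fish. For this member the hybrids were also close to each other, with a coefficient of variation of 4.92% in TC, against 16.1% in PC and 19.3% in TQ. This did not hold for all members past the minimum. The coefficient was lowest in TC for miR-731 and miR-730 too. It was highest in TC for miR-722 (18.1%, against 14.5% in PC and 15.7% in TQ), miR-727-5p, miR-727-3p and miR-724. It was not compared over all loci. The means were 390 ± 19.2 CPM in TC, 517 ± 83.1 CPM in PC and 550 ± 106 CPM in TQ (SD, n = 5 each). The log2FC by edgeR was -0.50 (SE 0.14, padj = 0.0191) for TC vs. TQ, -0.41 (SE 0.14, padj = 0.0784) for TC vs. PC and -0.45 (SE 0.13, padj = 0.0272) for TC against the parental mean, and so under the log2FC minimum in each. PC vs. TQ was -0.09 (SE 0.14, padj = 0.69). Exact permutation tests gave p = 0.00794 for TC vs. TQ, 0.0159 for TC vs. PC and 0.571 for PC vs. TQ.

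**Figure D4:**
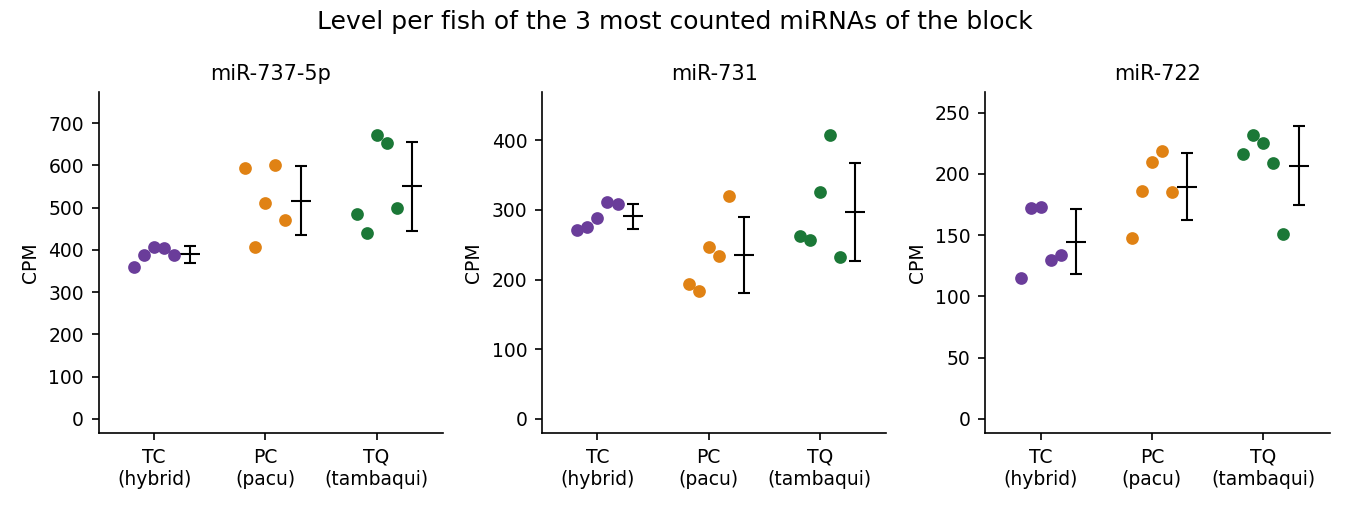
Level per fish in CPM (vertical axis) of miR-737-5p, miR-731 and miR-722 in TC, PC and TQ. Each point is 1 fish, with the mean and SD of 5 fish beside the points. For miR-737-5p the TC fish lie between 359 and 408 CPM, below every TQ fish, and for miR-722 TQ8 lies apart from the other TQ fish.

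The arms of miR-737 were counted very unequally. The 5p arm had 28903 counts over the 15 fish and the 3p arm 20, a ratio of 1450, whereas miR-727 had 561 and 735. miR-737-3p had 0 to 4 counts per fish, with sums of 8 in TC, 5 in PC and 7 in TQ. Tested among all loci with a count, its padj was 0.567 or more in each pair of genotypes.

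miR-722, the neutrophil regulator, ran in the same direction as miR-737-5p. It was at 115, 172, 173, 130 and 134 CPM in TC, at 186, 210, 219, 185 and 148 CPM in PC and at 216, 232, 225, 209 and 151 CPM in TQ. TC3, TC6 and TC8 were below every PC and every TQ fish, while TC4 and TC5 lay within both ranges. The means were 145 ± 26.2 CPM in TC, 190 ± 27.5 CPM in PC and 206 ± 32.4 CPM in TQ (SD, n = 5 each). By edgeR the log2FC was -0.51 (SE 0.16, padj = 0.0292) for TC vs. TQ, under the log2FC minimum, and -0.39 (SE 0.16, padj = 0.111) for TC vs. PC. It was -0.45 (SE 0.14, padj = 0.0509) for TC against the parental mean and -0.12 (SE 0.16, padj = 0.646) for PC vs. TQ. Exact permutation tests gave p = 0.0238 for TC vs. TQ, 0.0397 for TC vs. PC and 0.389 for PC vs. TQ. The most alike loci over the 15 fish were miR-130b (Pearson r = 0.757, Spearman rho = 0.593), miR-130c-3p (r = 0.715, rho = 0.621) and miR-19a-3p (r = 0.704, rho = 0.786). miR-223, the marker of granulocytes, came 29th of 145 names (r = 0.393, rho = 0.443), a comparison added after its values were seen.

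With the total counts in place of TMM, miR-722, miR-727-5p and miR-737-5p were all called lower in TC vs. TQ, miR-722 and miR-737-5p at a log2FC of -0.86 each. That scaling moved the median of all 199 loci to -0.38, and relative to this median miR-722 was at -0.48, miR-737-5p at -0.48 and miR-727-5p at -0.97. Relative to the median under TMM they were at -0.54, -0.53 and -1. The calls over all loci were 16 higher and 13 lower in TC vs. TQ under TMM, and 1 higher and 30 lower with total counts.

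miR-731 was called in no comparison. It was at 271, 276, 289, 311 and 308 CPM in TC, at 183, 247, 234, 320 and 193 CPM in PC and at 262, 257, 325, 408 and 233 CPM in TQ. TC fish lay within the range of each parent, with a coefficient of variation of 6.23% in TC, against 23.1% in PC and 23.8% in TQ. Between TC and PC the log2FC by edgeR was 0.31 (SE 0.17, padj = 0.296), between TC and TQ it was -0.03 (SE 0.17, padj = 0.907), and between PC and TQ it was -0.33 (SE 0.17, padj = 0.172). Its cluster partner miR-462 averaged 399 ± 51.3 CPM in TC, 283 ± 71.2 CPM in PC and 380 ± 70.3 CPM in TQ (SD, n = 5 each). The log2FC of miR-462 had the same sign as that of miR-731 between TC and PC (0.49, padj = 0.0784) and between PC and TQ (-0.42, padj = 0.0982), and was 0.07 (padj = 0.803) between TC and TQ. Over the 15 fish miR-462 came 4th of 145 names in likeness to miR-731 (Pearson r = 0.703, Spearman rho = 0.425), a measure added after the values were seen. Of the 20 loci of another numbered block, miR-454 to miR-462, 12 had counts and 8 were tested, and 0 of these 8 were called in any pair of genotypes. Of all loci 3.52% were called in TC vs. PC, 14.6% in TC vs. TQ and 10.6% in PC vs. TQ. With such shares, the 0 of 8 is no result about the block. The 8 include miR-455-3p at more than 1 locus, with the same values. By padj alone miR-454b passed in PC vs. TQ (log2FC -0.62, padj = 0.0346 by edgeR).

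miR-724 varied more between fish than any other member past the count minimum. It was at 4.51, 4.93, 32.7, 10.5 and 6.21 CPM in TC, at 6.32, 34.1, 6.31, 7.91 and 8.94 CPM in PC and at 6.08, 3.02, 4.51, 2.4 and 7.32 CPM in TQ. TC5 and PC4 stood far above their genotypes, and the other TC and PC fish were at 4.51 to 10.5 CPM. Its log2FC by edgeR was 1.47 (SE 0.62, padj = 0.103) in PC vs. TQ and 1.36 (SE 0.63, padj = 0.124) in TC vs. TQ. Between TC and PC it was -0.11 (SE 0.57, padj = 0.912). With PC4 and TC5 both left out, an alternative chosen after seeing the data, the log2FC was 0.64 in PC vs. TQ, 0.47 in TC vs. TQ and -0.17 between TC and PC. Leaving out single fish turned the sign between TC and PC, from -1.0 without TC5 to 0.80 without PC4. DESeq2 called PC vs. TQ with a padj as low as 0.0409 where edgeR did not. TC5 and PC4 also had the highest summed level of the leukocyte list in their genotypes, 919 and 706 CPM, with miR-142a-5p at 669 CPM in TC5 and 512 CPM in PC4. Of the marker lists with counts in these fish, it was the only one with TC5 and PC4 on top. The markers of the list did not all move together, since miR-155 was lowest of its genotype in TC5 (1.58 CPM) and highest in PC4 (4.94 CPM). In PC4 miR-150 was below the PC mean (90.0 against 105 CPM), and in TC5 miR-223 was below the TC mean (33.4 against 39.3 CPM). Other markers of the list went the other way. In PC4 miR-223 was the highest of PC (51.6 against a mean of 39.5 CPM). miR-142a-3p was above the mean in PC4 (47.0 against 45.3 CPM) and TC5 (46.9 against 43.2 CPM), as was miR-150 in TC5 (168 against 166 CPM). TQ6 had the lowest miR-724 of TQ (2.4 CPM) and the highest miR-142a-5p of TQ (605 CPM). Over the 15 fish miR-724 ran against miR-223 (Pearson r = -0.314, Spearman rho = -0.389) and miR-155 (r = -0.393, rho = -0.246), comparisons added after the values were seen. The correlations with the other markers of the list are not given. The part of blood cells in miR-724 was not tested.

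miR-730 was the least counted member past the minimum, with a mean normalized count of 10.7 and 3 to 31 counts per fish. It averaged 2.07 ± 0.46 CPM in TC, 3.28 ± 1.32 CPM in PC and 3.12 ± 0.82 CPM in TQ (SD, n = 5 each). The range was 1.33 to 2.46 CPM in TC, 1.58 to 4.79 CPM in PC and 2.15 to 4.40 CPM in TQ, and all overlapped. TC differed from PC by a log2FC of -0.68 (SE 0.30, padj = 0.136) and from TQ by -0.54 (SE 0.31, padj = 0.205) by edgeR, and PC from TQ by 0.14 (SE 0.29, padj = 0.772). Just outside the minimum, miR-734 had a mean normalized count of 3.53.

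The scarce members were tested in a separate edgeR fit of all 272 loci with a count, where 4.41% of loci were called between TC and PC, 11.0% between TC and TQ and 9.19% between PC and TQ. Of the 4 scarce members, miR-726 was called in all 3 pairs of genotypes and miR-728 in TC vs. TQ and in PC vs. TQ, which makes 1, 2 and 2 members. These calls rest on few reads, and the fitted log2FC depends on the prior count of the fit.

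miR-726 was counted in TC and TQ and in no PC fish. It had 2, 3, 2, 3 and 0 counts in TC, 0 counts in all 5 PC fish and 6, 11, 2, 4 and 8 counts in TQ. By CPM, TC lay between its parents, with 4 of 5 TC fish below every TQ fish and 4 of 5 above the PC fish. TC4 had 3 counts (0.643 CPM), and TQ3, the lowest TQ fish, had 2 (0.644 CPM). TC3 and TC5 also had 2 counts, so TC3, TC4 and TC5 were below TQ3 only through the scaling of the libraries. The PC libraries held 21936087 counts in all and the TQ libraries 14970607. The cause of the missing counts in PC was not tested, and a change of the sequence cannot be told apart from a change of the level. Against the floor of 3 counts pooled over the 5 PC fish (0.137 CPM), the pooled level of miR-726 was 12.7-fold higher in TQ and 3.58-fold higher in TC. These ratios leave out the counting error of the TQ and TC counts and the spread between fish, so they are not lower bounds. The ratio of TC to TQ was 0.281 (95% exact interval of the pooled counts 0.123 to 0.589, for counting error only). The edgeR test gave padj = 0.0172 between TC and PC, 0.0274 between TC and TQ and 0.00052 between PC and TQ. Exact permutation tests of the CPM gave p = 0.0476 between TC and PC, 0.0159 between TC and TQ and 0.00794 between PC and TQ. TC vs. TQ was not called when TC3, TC5, TQ2 or TQ8 was left out (padj up to 0.0696). A list of photoreceptor and hair cell markers (miR-96-5p, miR-182-5p and miR-183-5p) summed to 69.0 to 108 CPM in TC, 52.4 to 176 CPM in PC and 42.8 to 112 CPM in TQ, with means of 85.3 CPM in TC, 125 CPM in PC and 79.2 CPM in TQ.

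miR-728 was counted mainly in TQ. It had 1, 0, 0, 2 and 0 counts in TC, 3, 0, 0, 1 and 0 counts in PC and 4, 9, 2, 4 and 3 counts in TQ. Every TQ fish had a count, and TQ libraries were the shallowest at the median. No TC fish reached the CPM of the lowest TQ fish. TC6 (0.526 CPM) and TQ3 (0.644 CPM) both had 2 counts, so TC6 was below TQ3 only through the scaling of the libraries. The ratio of the pooled levels was 0.119 for TC to TQ (95% exact interval 0.0228 to 0.396) and 0.148 for PC to TQ (0.037 to 0.434), for counting error only. TC vs. TQ had a log2FC of -2.81 (SE 0.82, padj = 0.0261) by edgeR and an exact permutation p of 0.00794. PC vs. TQ had a log2FC of -2.52 (SE 0.78, padj = 0.0435) and an exact permutation p of 0.0238. TC vs. TQ was not called without TC4, TC5 or TQ2 (padj up to 0.0689), and PC vs. TQ lost its call in 8 of 15 fits with a fish removed (highest padj 0.125).

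**Figure D5:**
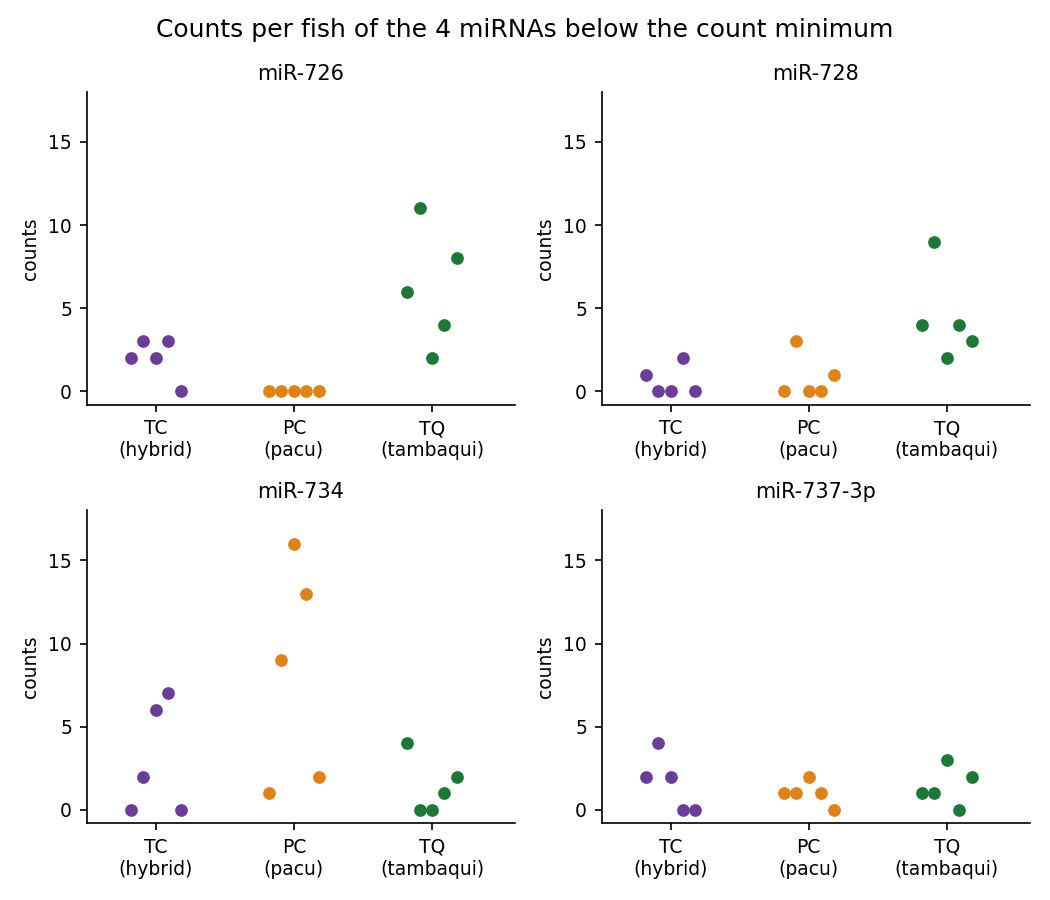
Counts per fish (vertical axis, not normalized) of miR-726, miR-728, miR-734 and miR-737-3p in TC, PC and TQ, each point 1 fish. miR-726 is at 0 in all PC fish and at 2 to 11 counts in TQ, and miR-728 has 2 to 9 counts in every TQ fish and 0 to 3 elsewhere.

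miR-734 had the opposite order of the parents. It had 0, 2, 6, 7 and 0 counts in TC, 9, 16, 13, 2 and 1 counts in PC and 4, 0, 0, 1 and 2 counts in TQ. The ratio of the pooled levels was 4.75 for PC to TQ (95% exact interval 2.11 to 12.6, for counting error only), but PC8 and PC10 lay within the range of TQ. By edgeR the log2FC was 2.04 (SE 0.81, padj = 0.103) for PC vs. TQ, -1.25 (SE 0.70, padj = 0.339) for TC vs. PC and 0.79 (SE 0.93, padj = 0.578) for TC vs. TQ. The exact permutation tests of the 11 counted members in 3 pairs of genotypes were 33 in all, and their p values are not adjusted.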

How the data were processed

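Per the study's methods, the authors removed adapters, filtered reads by quality and size, aligned them with Hisat2 to Danio rerio precursors from miRBase, and obtained read counts with featureCounts at the mature sequences that GMAP had placed there. The deposited counts are these raw read counts per mature locus. The deposited normalized signal is the same table after division by a size factor per fish, made by the authors with DESeq2. For Hisat2 and featureCounts, versions and the handling of reads with several matches were not given in the sources used here.

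Levels are CPM on TMM-scaled libraries. The tests came from edgeR 4.0.16 in R 4.3.3 on loci with a mean normalized count of 10 or more (199 of 595), with 15 fish in the fit and no block. The SE given with a log2FC was worked back as its size divided by the square root of the F statistic of the test. Members below this minimum were tested in a fit of the 272 loci with a count. Single miRNAs and the arm ratio were also compared by exact permutation tests, two-sided. The scripts were tested on simulated data. The precision of most loci is set by the spread between fish (biological coefficient of variation 0.279) and of the scarce members by their few counts. Correlations used log2(CPM + 1).

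The members, the lists of markers, the tests and the rule for named miRNAs were chosen with earlier results of these data known. By that rule every member is named, with miR-462, the counted miRNAs of miR-454 to miR-462 as counts, the 3 loci most alike miR-722 and miR-727-5p, and summed marker lists. Other miRNAs named singly, such as single markers of the muscle and leukocyte lists, fall outside this rule and were picked with the data known. Alternatives were other scalings (DESeq2 size factors, upper quartile, total counts), other filters (none, filterByExpr), DESeq2 1.42.0 with and without a log2FC prior, no log2FC minimum or a minimum of 1, fits of single pairs of genotypes, the fish number as a block, and each fish left out. Leaving out PC4 and TC5 together was added after seeing the data. Sequences were read from the study's supplementary precursors. Python 3.11.15 with scipy 1.17.1 and matplotlib 3.10.9 made tables and plots.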

Additional observations from a re-analysis of the deposited data

Results flagged for a closer look

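Of 35 groups of 5 fish, 32 of the CPM of a counted member and 3 of the arm ratio of miR-727, 3 held a fish far from the others by Dixon's criterion, and chance alone gives about 1 in 20. In TQ, miR-722 was at 151 CPM in TQ8, with the next fish at 209 CPM, a gap of 0.725 of the range of the group. TQ8 also had the highest TMM factor of the 15 fish, 1.434, and the part of scaling was not tested. miR-724 was at 32.7 CPM in TC5, against 10.5 CPM in the next TC fish (0.787 of the range), and at 34.1 CPM in PC4, against 8.94 CPM in the next PC fish (0.905 of the range). Behind the high values of miR-724 were 186 counts in TC5 and 221 in PC4.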

How the results depend on the processing

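The number of members called was 1 in TC vs. TQ and 0 in the other 3 comparisons. With every locus with a count in the fit it was 1, 3 and 2 for the 3 pairs of genotypes, the additions being miR-726 and miR-728. Over all 272 loci of that fit 4.41%, 11.0% and 9.19% were called. For TC vs. TQ it was 3 with total counts, where 31 of all 199 loci were called, and 3 without a log2FC minimum, where 26.6% were. It was 0 with a minimum of 1 and 0 without both PC4 and TC5. For PC vs. TQ it was 1 by DESeq2 with or without a prior (miR-724) and 1 without both PC4 and TC5 (miR-727-5p). For TC against the parental mean it was 1 without a log2FC minimum. Leaving out single fish gave 0 to 1 for TC vs. TQ and 0 to 1 for PC vs. TQ. Shares over all loci are not given for the minimum of 1, the DESeq2 prior and the fits without fish. The counts of members called there are no result about the members. Over the 12 alternatives miR-727-5p in TC vs. TQ had a log2FC of -1.35 to -0.75 and a padj of 0.0114 to 0.197. The log2 ratio of miR-727-5p to miR-727-3p in TC vs. TQ was -0.90 by medians (exact p = 0.119), and in PC vs. TQ leaving out single fish gave -1.03 to -0.64. With 1 copy of each mature name in the denominator the members held 0.164% of counts in TC, 0.21% in PC and 0.268% in TQ. miR-726 in PC vs. TQ was called in every alternative except the replicate block (padj up to 0.0787). In TC vs. PC it was lost with the block, with the DESeq2 prior and without both PC4 and TC5 (padj up to 0.201). In TC vs. TQ its call was lost with the block, with DESeq2 without a prior and without both PC4 and TC5 (highest padj 0.365). miR-728 in PC vs. TQ was lost in 6 of 8 alternatives. miR-730 fell below the count minimum in 1 of 15 fits without a fish. The causes were not tested.

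Some numbers in the labels recur across genotypes. Of 9 same-numbered pairs 4 correlated by over 0.1 (r = -0.512 to 0.277), and 2 of 12 such fish correlated best with their own number, so the numbers were not taken as a pairing. With the fish number as a replicate block, 0 members were called for TC vs. TQ, and the arm ratio of miR-727 in TC vs. TQ was -0.97 over 3 shared numbers (exact p = 0.25, the smallest p that 3 pairs can give, so this test could not pass). Depth limits the scarce members most, since 1 count is worth 0.154 to 0.444 CPM. The p values weigh a difference between genotypes against the variation between these fish.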
